A study of Mus musculus with 19 samples.

Results

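Complement is a set of plasma and cell-surface proteins that tag targets and recruit immune cells, and its components C1qa, C1qb, C1qc, C2, C3, C4b, Cfb, Cfp and Masp1 were followed in perigonadal fat of overfed mice. These 9 genes were chosen by symbol as classical, lectin and alternative pathway genes other than Cfd. They are 9 of the 24348 genes listed in the count files, and all 9 were among the 16015 genes that passed the filter on low counts.

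RNA sequencing was done on 19 libraries of whole perigonadal adipose tissue, the fat depot around the gonads, from C57BL/6 mice in a pair of weight-gain models. Mice on a high-fat diet (HFD, 60%) were sampled at peak weight while fed (HFD fed, n = 4) or after 24 h without feeding (HFD fasted, n = 4). Mice on Ensure, a liquid nutritional formula, were likewise sampled at peak weight while fed (Ensure fed, n = 6) or after 24 h without feeding (Ensure fasted, n = 5). No lean or standard-diet group was analysed here, so every value is from an overfed mouse. The labels name no transgene or drug. Each library is named by its group and its number in the labels. Whether every library comes from its own animal is not stated, and the p-values then measure spread among samples that may in part be technical.

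In the classical pathway, C1q binds immune complexes or dying cells, and the resulting protease cascade cuts C4 and C2 to form an enzyme that cleaves C3. In the lectin pathway, sugar-binding proteins carry the MASP proteases that set off the same cascade, and in the alternative pathway C3b, factor B and properdin form a self-amplifying enzyme. Liver makes most circulating complement, while macrophages are a main source of C1q and fat is a known source of factor D, encoded by Cfd.

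Library depth, as reads counted in genes, ranged from 12.82 to 22.55 M. The adipocyte markers Adipoq, Plin1, Cidec, Lipe, Fabp4 and Retn summed to 9336 to 24215 CPM (counts per M counts, scaled between libraries by TMM). Genital tract and sperm markers summed to over 100 CPM in 5 libraries and reached 11663 CPM in Ensure fasted 5; the other 4 were Ensure fasted 2, Ensure fed 10, Ensure fed 12 and HFD fasted 24. A further 3 libraries (HFD fed 21, HFD fasted 26, Ensure fed 16) had the epithelial gene Cdh16 above 25 CPM. All HFD libraries were sequenced in lane 7, and of the Ensure libraries only Ensure fed 18 was, so diet and lane can barely be told apart. In bulk tissue, fewer cells of a type and less RNA per cell cannot be told apart.

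RefSeq promoter windows (GRCm38.p6, the 250 bases before the start of the gene, on the gene's strand) were matched for 4 of the 9 genes, C1qb, C1qc, C3 and Cfp. Every member with a window in the set used is shown, and the other members had none. Capitals mark the letters of 3 motifs searched on both strands: GAGGAA, a core bound by the myeloid factor PU.1; TTGCNNAA, a C/EBP-type core; and an interferon-response core of GAAA repeated after NN. The windows lay on the minus strand at chr4:136886201-136886450 (C1qb), chr4:136892915-136893164 (C1qc), chr17:57228137-57228386 (C3) and chrX:20931556-20931805 (Cfp).
C1qb: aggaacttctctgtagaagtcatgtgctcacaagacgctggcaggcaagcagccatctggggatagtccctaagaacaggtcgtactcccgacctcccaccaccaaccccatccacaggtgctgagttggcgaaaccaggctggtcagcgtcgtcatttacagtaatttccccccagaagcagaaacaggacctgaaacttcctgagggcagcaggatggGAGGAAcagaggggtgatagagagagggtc
C1qc: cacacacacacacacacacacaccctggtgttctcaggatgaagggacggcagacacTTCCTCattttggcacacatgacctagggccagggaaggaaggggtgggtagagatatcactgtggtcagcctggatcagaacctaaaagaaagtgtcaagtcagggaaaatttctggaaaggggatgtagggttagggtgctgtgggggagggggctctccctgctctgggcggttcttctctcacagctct
C3: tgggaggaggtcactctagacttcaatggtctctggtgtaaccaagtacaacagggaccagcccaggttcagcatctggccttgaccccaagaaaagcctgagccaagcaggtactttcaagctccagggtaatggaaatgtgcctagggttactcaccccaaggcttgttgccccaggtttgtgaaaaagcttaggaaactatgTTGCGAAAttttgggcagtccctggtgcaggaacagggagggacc
Cfp: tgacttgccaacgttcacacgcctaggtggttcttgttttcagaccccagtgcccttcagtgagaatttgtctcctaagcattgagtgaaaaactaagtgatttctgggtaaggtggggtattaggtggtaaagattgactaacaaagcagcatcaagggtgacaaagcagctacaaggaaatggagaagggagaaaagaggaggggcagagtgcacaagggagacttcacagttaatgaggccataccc

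GAGGAA began 30 bases before the start of C1qb, and its reverse complement TTCCTC began 193 bases before the start of C1qc. Of 32851 promoter windows of this length, 23.3% held GAGGAA on either strand. In the C3 window TTGCGAAA, a match to TTGCNNAA, began 45 bases before the start, and 9.6% of all windows held this motif. The interferon-response core was in none of the 4 windows and in 3.0% of all windows, and the Cfp window held none of the 3 motifs. The searched motifs did not overlap one another, and a match is a description of these letters and shows no binding.

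The 9 genes differed widely in level. Divided by transcript length (the longest coding transcript in GENCODE M21), the median over the 19 libraries was 398 CPM per kb for C3, 271 for C1qb, 248 for C1qa, 209 for C1qc, 209 for Cfb and 163 for C4b. Below these came Cfp at 56.1 CPM per kb, C2 at 40.0 and Masp1 at 0.967. For comparison, Cfd stood at 930.4 CPM per kb. The ranges over libraries overlapped between all neighbours in this order except C2 and Masp1, where C2 was at 27.6 to 73.7 CPM per kb and Masp1 at 0.0922 to 1.68 CPM per kb.

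**Figure D1:**
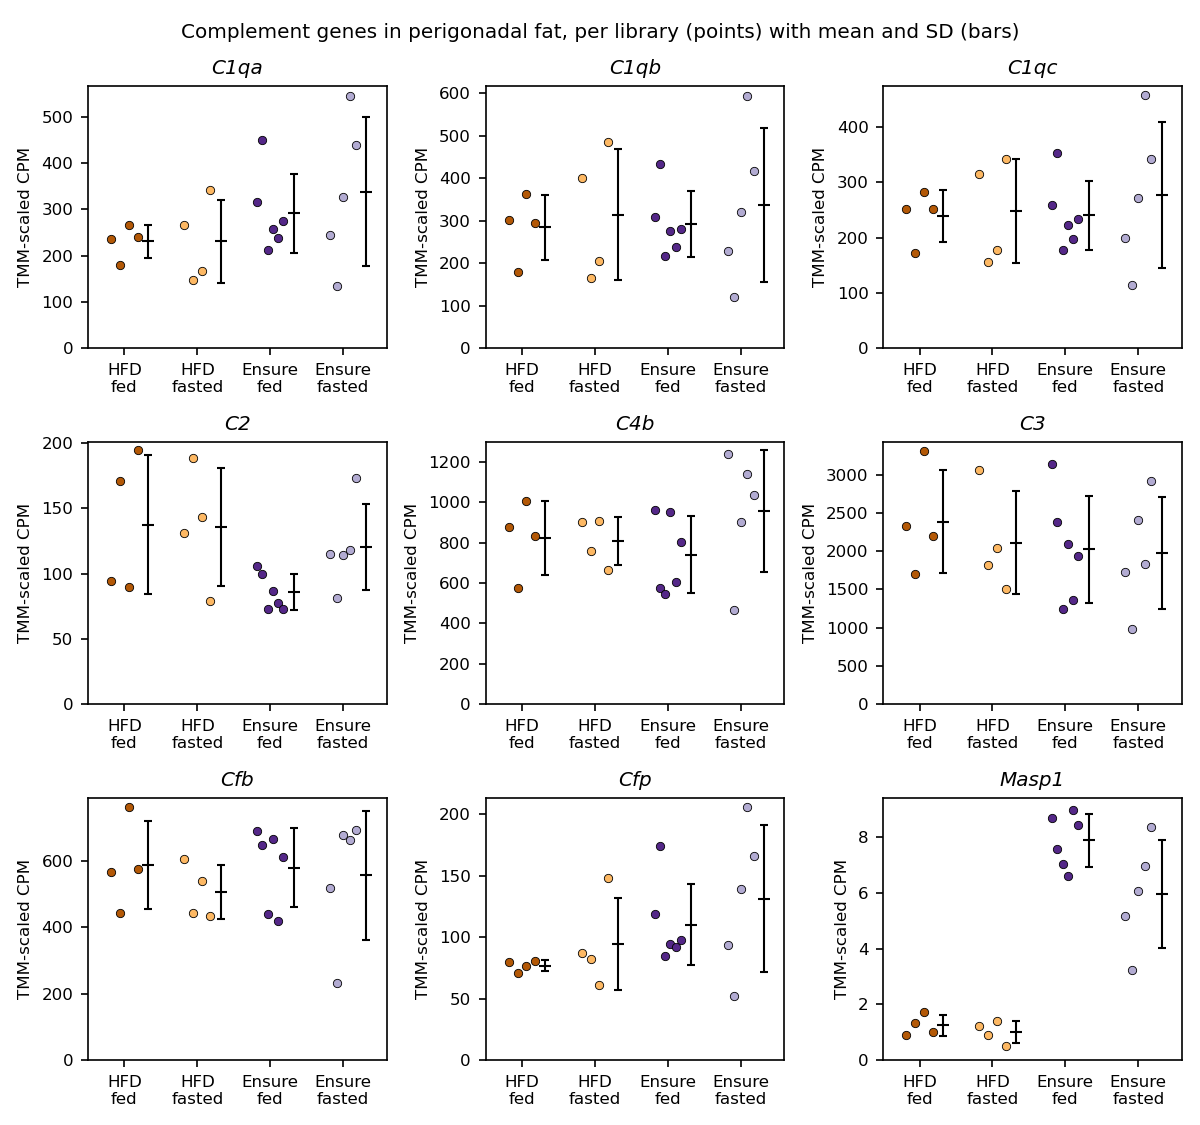
Level of each of the 9 complement genes in TMM-scaled CPM (vertical axes, each from 0) in the 4 groups; points are libraries and bars are the group mean and SD. The groups overlap for 8 genes in most comparisons, whereas every Ensure library lies at 3.23 CPM or above for Masp1 and every HFD library at 1.73 CPM or below.

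Masp1 was the only one of the 9 genes that differed between diets by edgeR's quasi-likelihood test, and it was higher with Ensure than with HFD in both feeding states. The gene encodes MASP-1, the protease that activates MASP-2 in the lectin pathway, and by alternative splicing MASP-3, which activates factor D, and the non-catalytic MAp44. Gene-level counts do not separate these products.

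Among fed libraries, Masp1 was at 0.911, 1.31, 1.73 and 1.02 CPM in HFD fed 21, 22, 25 and 27. In the 6 Ensure fed libraries its lowest level was 6.62, the median 8.02 and the highest 8.99 CPM. The groups were thus far apart, with the lowest Ensure fed library well above the highest HFD fed library. The means were 1.24 ± 0.364 CPM (SD, n = 4) and 7.89 ± 0.960 CPM (SD, n = 6), a 6.33-fold difference (log2 fold change 2.66 ± 0.31 SE, edgeR adjusted p = 0.000300). Among fasted libraries, Masp1 was at 1.22, 0.912, 1.41 and 0.493 CPM in HFD fasted 23, 24, 26 and 28. It was at 5.17, 3.23, 6.08, 6.98 and 8.37 CPM in Ensure fasted 2, 5, 7, 8 and 17. These groups did not overlap either, the nearest libraries being HFD fasted 26 and Ensure fasted 5, the library with the most genital tract reads. The means were 1.01 ± 0.400 CPM (SD, n = 4) and 5.97 ± 1.93 CPM (SD, n = 5), a 5.88-fold difference (log2 fold change 2.56 ± 0.31 SE, edgeR adjusted p = 0.000838).

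The counts behind these levels were small, 9 to 34 reads per HFD library and 65 to 174 per Ensure library. Leaving out any single library kept the call in 10 of 10 fits of fed and 9 of 9 fits of fasted libraries, at log2 fold changes of 2.59 to 2.86 and 2.31 to 2.75. Without the 5 libraries rich in tract markers the log2 fold changes were 2.77 and 2.76, and without these and the 3 rich in Cdh16 they were 2.62 and 3.06, all 4 called. With lane as a term, the calls ended, and 2 genes of all tested were called between fed and 0 between fasted diets. The log2 fold changes of Masp1 were then 2.76 ± 0.44 (fed, edgeR adjusted p = 0.0701) and 2.78 ± 0.56 (fasted, edgeR adjusted p = 0.523). Both link the diets only through Ensure fed 18, the single Ensure library in the HFD lane. Any separation of diet from lane in this fit therefore rests on that 1 library. In a fit of the fasted groups alone, which called 1 gene of 15431, the call also ended (2.54 ± 0.41, edgeR adjusted p = 0.128). Within lane 7, that same library, Ensure fed 18, was at 8.44 CPM, against 0.493 to 1.73 CPM in the 8 HFD libraries.

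Some markers of other cells were also called between diets, those of 5 of the 14 lists read. Of all tested genes, 4.26% were called between fed and 2.82% between fasted diets. Diet and lane can barely be told apart in these calls too. The 9 stromal progenitor markers summed to 3815 to 5555 CPM in HFD and 4470 to 10773 CPM in Ensure libraries, and 2 were called higher and 2 lower in Ensure fed, and 3 higher and 1 lower in Ensure fasted. Their median log2 fold change was -0.008 among fed and 0.44 among fasted libraries. The 5 measured neutrophil markers summed to 22.1 to 57.1 CPM with HFD and 44.6 to 172 CPM with Ensure, with 2 called higher in each feeding state and medians of 2.14 and 1.89. The 8 interferon-responsive genes summed to 272 to 452 CPM with HFD and 331 to 789 CPM with Ensure, with medians of 0.67 and 1.12, none called between fed diets and Irf7 and Ifit1 called higher in Ensure fasted. No marker of these 3 lists was at 0 in all libraries of a group. Of the 5 dendritic cell markers, which summed to 30.3 to 45.4 CPM with HFD and 21.2 to 35.4 CPM with Ensure, Ccr7 was called lower in Ensure fasted, and the lipid-associated macrophage list is described with C1q. The part of these cells and genes in the Masp1 difference was not tested. Hepatocyte markers summed to at most 52.6 CPM in every library but Ensure fed 1, at 344 CPM, and Masp1 in Ensure fed 1 (8.68 CPM) lay within the range of the other Ensure fed libraries.

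Over all 9 genes, 1 was called between fed diets, where 4.26% of the 16015 tested genes were called, and 1 between fasted diets, where the share was 2.82%. Higher calls alone made up 2.09% and 1.63% of tested genes, and lower calls 2.17% and 1.19%. The median log2 fold change of the 9 was 0.01 among fed and 0.16 among fasted libraries, beside -0.04 and 0.02 over all tested genes. The other 8 genes spanned log2 fold changes of -0.68 (C2) to 0.52 (Cfp) among fed and -0.17 (C2) to 0.56 (C1qa) among fasted libraries.

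**Figure D2:**
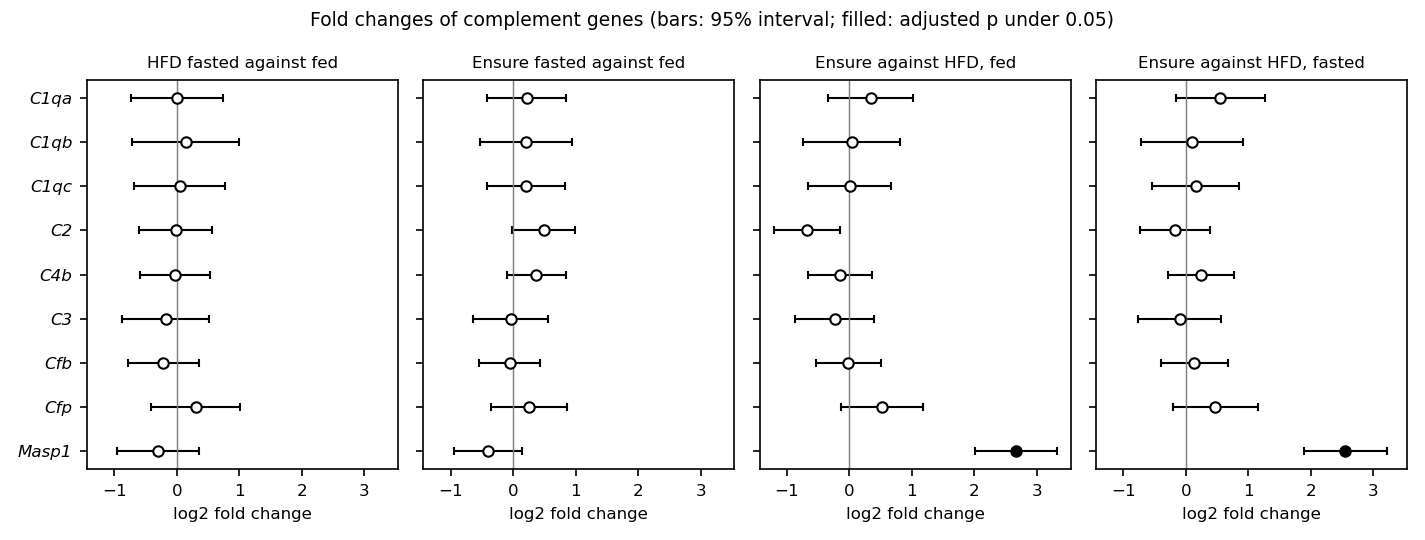
log2 fold changes of the 9 complement genes (horizontal axes) in 4 comparisons, with 95% intervals; filled points have an edgeR adjusted p under 0.05 over all tested genes. The filled points are Masp1 in the fed and fasted diet comparisons, at 2.66 and 2.56.

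The 3 C1q genes encode the chains of C1q, the recognition molecule of the classical pathway, and lie side by side in the order C1qb, C1qc, C1qa on chromosome 4 (RefSeq, GRCm38.p6). C1qa was at 231 ± 36.3 CPM in HFD fed, 231 ± 90.6 in HFD fasted, 292 ± 85.6 in Ensure fed and 339 ± 161 in Ensure fasted libraries (SD, n = 4, 4, 6 and 5). C1qb was at 285 ± 76.9, 314 ± 154, 292 ± 77.2 and 336 ± 181 CPM in the same order. C1qc was at 239.5 ± 46.9, 248 ± 94.7, 240.4 ± 62.2 and 277 ± 132 CPM. For each of the 3 genes the groups overlapped in every comparison, and the fasted groups were the more spread.

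In the Ensure fasted group C1qa was at 245, 135, 327, 546 and 440 CPM in libraries 2, 5, 7, 8 and 17. In the HFD fasted group it was at 266, 147, 167 and 342 CPM in libraries 23, 24, 26 and 28. The lowest levels were those of Ensure fasted 5 and HFD fasted 24, both rich in tract markers, and the highest that of Ensure fasted 8. The log2 fold change of Ensure against HFD was 0.34 ± 0.32 SE among fed (edgeR adjusted p = 0.669) and 0.56 ± 0.34 SE among fasted libraries (edgeR adjusted p = 0.370), with a 95% interval of -0.15 to 1.26 in the second. With limma voom and sample quality weights, which called 21.3% of all tested genes in this contrast, the fasted difference passed (1.15, adjusted p = 0.00378).

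The ratio of C1qc to C1qa separated the diets, whereas the levels of both genes overlapped. C1qc counts per C1qa count were 0.956 to 1.19 in the 8 HFD libraries and 0.776 to 0.859 in the 11 Ensure libraries. No library of one diet reached the range of the other, and Ensure fed 18, the Ensure library in lane 7, was at 0.848. C1qb counts per C1qa count were 0.990 to 1.51 with HFD and 0.900 to 1.09 with Ensure, ranges that overlapped. Ratios of Cfb to C3, C2 to Cfb and Cfp to C1qa also overlapped between diets. The ratio of C1qc to C1qa was singled out after its values were seen, so no test is given. How many pairs among all genes separate the diets in this way was not measured. A ratio shows unequal levels and does not show which gene of the pair differed.

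Macrophages are the main known source of C1q in fat, and the 12 macrophage markers (among them Adgre1, Cd68, Csf1r, Mrc1 and Lyz2) summed to 1485 to 5636 CPM in HFD and 1034 to 4832 CPM in Ensure libraries. None of the 12 was called by edgeR in any of the 5 contrasts, and their median log2 fold change of Ensure against HFD was 0.04 among fed and 0.14 among fasted libraries. Single markers ranged from -1.51 (Cd68) to 0.83 (Aif1) among fed and from -2.10 (Cd68) to 1.43 (Cd163) among fasted libraries. Per 1000 CPM of these markers, C1qa was at 60.7 to 99.0 CPM in the 8 HFD libraries and 113 to 139.8 CPM in the 11 Ensure libraries, without overlap. C1qb per 1000 macrophage CPM was at 86.2 to 114 with HFD and 112 to 137 with Ensure, and C1qc at 60.7 to 104 and 94.5 to 115, both with overlap. Cfp per 1000 macrophage CPM was at 21.8 to 55.1 with HFD and 42.5 to 53.2 with Ensure, again with overlap. These ratios were also chosen after their values were seen. The 8 markers of lipid-associated macrophages, a state described in obese fat, summed to 822 to 19903 CPM with HFD and 237 to 1975 CPM with Ensure. Of these markers, 5 were called lower in Ensure fed and 4 in Ensure fasted, beside 2.17% and 1.19% of all tested genes. The part of these cell states in the ratios was not tested.

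**Figure D3:**
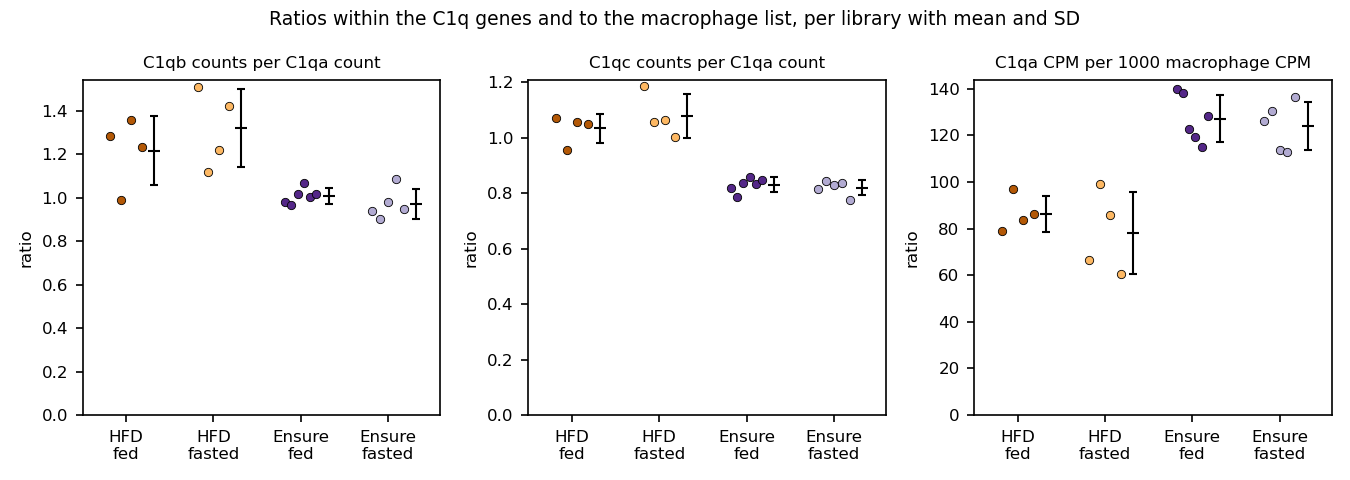
Counts of C1qb and of C1qc per count of C1qa, and C1qa CPM per 1000 CPM summed over the 12 macrophage markers (vertical axes from 0), in the 4 groups; points are libraries and bars the mean and SD. The middle and right panels show no overlap between the 8 HFD and 11 Ensure libraries, at 0.956 to 1.19 against 0.776 to 0.859 and at 60.7 to 99.0 against 113 to 139.8.

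C2 and C4b encode the parts of the classical and lectin C3-cleaving enzyme. C2, the protease part, was at 94.3, 171, 89.7 and 195 CPM in HFD fed 21, 22, 25 and 27. In the 6 Ensure fed libraries it was at 72.9 CPM at the lowest, 81.9 at the median and 106 at the highest. Of the HFD fed libraries, 22 and 27 lay above and 21 and 25 within the Ensure range. The means were 137 ± 53.4 and 85.9 ± 14.1 CPM (SD, n = 4 and 6), and the log2 fold change of -0.68 ± 0.25 SE did not pass (edgeR adjusted p = 0.147), though it did by limma voom (-0.92, adjusted p = 0.000915), which called 34.0% of all tested genes.

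After 24 h without feeding, C2 was at 115, 81.1, 114, 118 and 173 CPM in Ensure fasted 2, 5, 7, 8 and 17, above the Ensure fed range in 4 of the 5. The log2 fold change of fasted against fed with Ensure was 0.49 ± 0.24 SE (edgeR adjusted p = 0.153), and limma voom, which called 35.2% of all tested genes, gave 0.68 (adjusted p = 0.00724). By lane the values were uneven. In lane 5, 1 fed library stood at 106 CPM and 4 fasted libraries averaged 107 CPM, whereas in lane 6, 4 fed libraries averaged 84.2 CPM and 1 fasted library stood at 173 CPM. C2 in HFD fasted 23, 24, 26 and 28 was at 131, 188, 143 and 78.8 CPM, a mean of 136 ± 45.1 CPM (SD, n = 4) that sat inside the HFD fed range.

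C4b, the covalently binding part, was at 822 ± 181 CPM in HFD fed, 807 ± 118 in HFD fasted, 739.9 ± 189.7 in Ensure fed and 956 ± 302 in Ensure fasted libraries (SD, n = 4, 4, 6 and 5). All groups overlapped, with library 2 of Ensure fasted the highest (1239.6 CPM) and library 5 the lowest (463 CPM). The log2 fold change of fasted against fed with Ensure was 0.37 ± 0.23 SE (edgeR adjusted p = 0.246). C4b has a near-identical copy, C4a, listed at 0.872 to 2.79 CPM, so reads shared between them may have been lost or split.

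C3, the protein on which all 3 pathways converge, was at 2384 ± 676 CPM in HFD fed, 2110.3 ± 675 in HFD fasted, 2024 ± 697 in Ensure fed and 1973 ± 733 in Ensure fasted libraries (SD, n = 4, 4, 6 and 5). Single libraries ranged from 981 CPM in Ensure fasted 5 to 3312 CPM in HFD fed 25, and no pair of groups was apart. The log2 fold change of fasted against fed with HFD was -0.18 ± 0.33 SE (95% interval -0.87 to 0.52, edgeR adjusted p = 0.809), and 0.023 without HFD fed 25. Cfb encodes factor B, the protease of the alternative C3-cleaving enzyme, and lies next to C2 on chromosome 17 (RefSeq, GRCm38.p6). It was at 586 ± 132, 505 ± 81.4, 579 ± 118 and 556 ± 194 CPM in the same order of groups. Its log2 fold change of fasted against fed with HFD was -0.21 ± 0.27 SE (95% interval -0.78 to 0.36, edgeR adjusted p = 0.732), and its lowest library was again Ensure fasted 5, at 233 CPM.

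Cfp encodes properdin, which stabilises the alternative C3-cleaving enzyme. It was at 79.9, 70.4, 76.2 and 80.2 CPM in HFD fed 21, 22, 25 and 27. In the Ensure fed libraries its lowest level was 84.6, the median 96.3 and the highest 174 CPM. The groups did not overlap, though the nearest libraries were only a few CPM apart. Groups did not overlap for 2 of the 9 genes among fed libraries, Masp1 and Cfp, where 13.3% of all tested genes did not overlap. The log2 fold change of Cfp was 0.52 ± 0.31 SE (means 76.7 ± 4.53 and 110.2 ± 33.2 CPM, SD, n = 4 and 6) and did not pass (edgeR adjusted p = 0.407).

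Among fasted libraries Cfp was at 87.2, 81.9, 61.4 and 148 CPM with HFD and at 93.7, 52.4, 139, 205 and 166 CPM with Ensure, in the order of library numbers. These groups overlapped, with Ensure fasted 5 the lowest of all 19. The log2 fold change was 0.47 ± 0.32 SE (edgeR adjusted p = 0.438), and 1.17 by limma voom (adjusted p = 0.00246). Masp1 alone of the 9 genes had fasted groups apart, beside 3.97% of all tested genes.

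No fasting response of the 9 genes passed the test. By edgeR, with HFD 0 of 9 were called, beside 1.22% of all tested genes (0.187% higher, 1.03% lower), and with Ensure 0 of 9, beside 20.3%. None of the 9 had an unadjusted p under 0.05 in either contrast, DESeq2 called none in either, and limma voom called none with HFD and C2 and Cfp with Ensure. The median log2 fold change was -0.02 with HFD and 0.21 with Ensure, beside 0.06 and 0.11 over all tested genes. For no gene were the fed and fasted groups apart, beside 8.47% of tested genes with HFD and 15% with Ensure. Masp1 had a log2 fold change of -0.30 ± 0.31 SE with HFD (edgeR adjusted p = 0.681) and -0.40 ± 0.26 SE with Ensure (edgeR adjusted p = 0.275). In the difference between the fasting responses of the diets, edgeR called 0 of 9 and 0% of all genes, with 0 of 9 and 1234 of all 16015 genes at an unadjusted p under 0.05. DESeq2 called 65 genes and limma voom 1170 genes in this contrast, and neither called any of the 9.

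Over the 19 libraries several of the genes varied together, and 15 of the 36 pairs had an adjusted p under 0.05 for Pearson's r. The permutations shuffled all 19 libraries across groups and lanes. The share of such pairs among all genes was not measured, so the count shows nothing particular to complement genes. Pearson's r of log2(CPM + 0.5) was 0.99 between C1qb and C1qc, 0.92 between C1qa and C1qb and 0.93 between C1qa and C1qc (Spearman's rho 0.99, 0.92 and 0.92). Cfp followed C1qa, with r = 0.93 and rho = 0.89. Each of these r had a 2-sided permutation p of 1e-05, the smallest that 100000 permutations can give, and an adjusted p of 7.2e-05 over the 36 pairs. Without the 2 libraries farthest from the median of C1qa, r with Cfp was 0.89, and with the group means removed it was 0.94.

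C3 followed Cfb, with r = 0.87 and rho = 0.88 (permutation p = 1e-05, adjusted 7.2e-05), and r = 0.81 without the 2 libraries farthest from the median of C3. C4b and Cfb had r = 0.73 and rho = 0.70 (permutation p = 0.00018, adjusted 0.00081), and 0.57 without the 2 farthest. C4b and C3 had r = 0.65 and rho = 0.58 (permutation p = 0.00276, adjusted 0.00828), and 0.41 without the 2 farthest.

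The C1q genes also followed Cfb, about as closely as C4b did. The r was 0.67 for C1qa, 0.70 for C1qb and 0.73 for C1qc (rho 0.66, 0.59 and 0.62; permutation p = 0.00114, 0.00065 and 0.00032, adjusted 0.00373, 0.00234 and 0.00128). Without the 2 farthest libraries these r were 0.56, 0.54 and 0.58. With the group means removed they were 0.73, 0.73 and 0.75, beside 0.83 for C4b and Cfb. With C3 the r was 0.46 for C1qa, 0.56 for C1qb and 0.59 for C1qc (rho 0.50, 0.56 and 0.60; permutation p = 0.0476, 0.0130 and 0.0077, adjusted 0.0951, 0.0334 and 0.0213). Without the 2 farthest these were 0.42, 0.51 and 0.58, and with the group means removed 0.60, 0.59 and 0.63.

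Among the 9 libraries of lane 7, r was 0.73 for C1qa and Cfp, 0.87 for C3 and Cfb, 0.84 for C4b and Cfb and 0.82 for C4b and C3, against 0.35 to 0.40 for the C1q genes and Cfb and 0.19 to 0.37 for the C1q genes and C3. Lanes 5 and 6 held 5 libraries each, too few for a value. Without the 8 libraries rich in tract markers or Cdh16, r was 0.95, 0.78, 0.70 and 0.51 for the first 4 pairs, 0.30 to 0.43 for the C1q genes and Cfb and 0.03 to 0.07 for the C1q genes and C3. The relation of C1q to C3 thus did not hold without those 8 libraries, and that of C1q to Cfb was lower there and in lane 7. No pooled r is given for Masp1, whose levels form a cluster for each diet. All r share library depth and scaling, since CPM of one gene depends on all others.

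**Figure D4:**
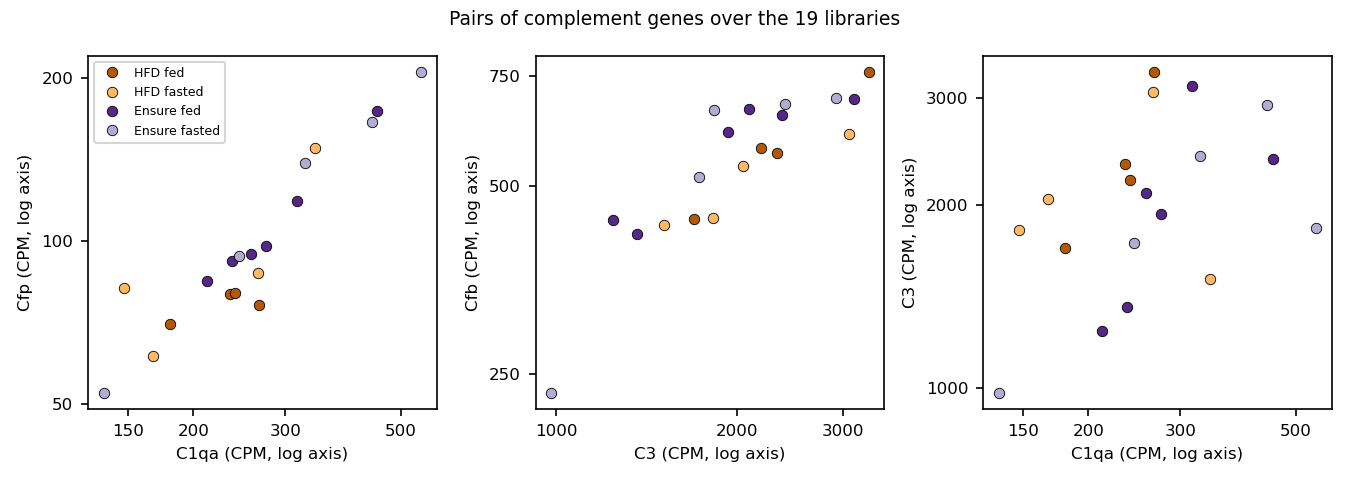
Levels of C1qa and Cfp, C3 and Cfb, and C1qa and C3 in CPM (log axes) over the 19 libraries, coloured by group. The first pair lies along a line (r = 0.93), the second nearly so (r = 0.87), and the third is scattered (r = 0.46).

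Of 10087 genes with a mean of at least 10 CPM, those whose levels were most like C1qa over the 19 libraries were Ms4a6c, Pld4, Clec4a1, Cd14 and Serpinb8, at r = 0.93 to 0.94. For Cfp they were Ifitm3, Bst1, Cd14, Epsti1 and Phf11d (r = 0.88 to 0.92), so that Cd14 stood in both sets. For C3 they were Pcolce2, Lfng, Colec12, Dnm3 and Asap1 (r = 0.79 to 0.84), and for Cfb the first 4 were Lfng, Fap, Tgfbr2 and Dse (r = 0.89 to 0.93), with Lfng in both. For C4b they were Fbln2, B4galt1, Plat, Tgfbi and H2-Ab1 (r = 0.76 to 0.80).

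Other complement genes were read from a list of 38, of which 31 passed the filter. After fasting with HFD none was called by edgeR, with 1 at an unadjusted p under 0.05, none by DESeq2 and Cr1l by limma voom. After fasting with Ensure 4 rose and none fell, where 10.6% of all tested genes rose and 9.77% fell. These were Serping1, the C1 inhibitor, Cd46, a membrane cofactor for C3b cleavage, Clu, which encodes the terminal pathway inhibitor clusterin, and C8g, a chain of C8.

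Serping1 was at 365 CPM at the lowest, 402 at the median and 513 at the highest in Ensure fed, and at 512, 387, 618, 643 and 787 CPM in Ensure fasted 2, 5, 7, 8 and 17. The means were 419 ± 58.2 and 589 ± 149.5 CPM (SD, n = 6 and 5), and edgeR gave a log2 fold change of 0.49 ± 0.15 SE (adjusted p = 0.0327). The groups overlapped, with Ensure fasted 5 and 2 inside the fed range. Cd46 averaged 1.62 CPM in the Ensure fed and 2.95 CPM in the Ensure fasted group and rose by a log2 fold change of 0.86 ± 0.21 SE (edgeR adjusted p = 0.0102). Its groups overlapped, with Ensure fed 16 at 2.43 CPM and Ensure fasted 5 at 2.39 CPM. The counts behind it were small, 19 to 47 reads in Ensure fed and 44 to 58 in Ensure fasted libraries. Clu was highest in Ensure fasted 5 at 375 CPM and next in Ensure fasted 2 at 231 CPM, both rich in tract markers, and at 77.8 to 124 CPM in the other fasted libraries, against 68.5 to 107 CPM in Ensure fed (log2 fold change 1.06 ± 0.35 SE, edgeR adjusted p = 0.0414). C8g rose from 3.71 to 5.92 CPM on average (0.68 ± 0.21 SE, edgeR adjusted p = 0.0293). It was also highest in Ensure fasted 5, at 8.01 CPM, and at 4.54 to 6.13 CPM in the other fasted libraries, against 2.98 to 5.46 CPM in Ensure fed. Leaving out each of the 11 Ensure libraries in turn kept the call of Cd46 in 11 fits, of Serping1 and C8g in 5 each and of Clu in 3, and with lane as a term 0 of the 4 were called.

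Between diets, Itgax and Serping1 were lower in Ensure fed than in HFD fed libraries and none was higher, where 2.17% of all tested genes were lower and 2.09% higher. Itgax, the alpha chain of complement receptor 4 and one of the lipid-associated macrophage markers above, was at 185, 72.6, 177 and 154 CPM in HFD fed 21, 22, 25 and 27 and at 16.0 to 32.6 CPM in Ensure fed (log2 fold change -2.56 ± 0.53 SE, edgeR adjusted p = 0.0123). Among fasted libraries Itgax was the only call, at 336, 43.8, 96.1 and 558 CPM with HFD and 11.6 to 58.6 CPM with Ensure (-3.15 ± 0.58 SE, edgeR adjusted p = 0.00864). The call of Itgax was kept in all 10 and all 9 fits without a single library, and ended with lane as a term. Serping1 was at 560.4 to 735 CPM in HFD fed, above every Ensure fed library (-0.65 ± 0.16 SE, edgeR adjusted p = 0.0318), and kept its call in 3 of 10 such fits.

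Cfd, which encodes factor D, the protease that activates factor B and is known as adipsin, was not called in any contrast. It spread widely with HFD, at 372 to 2024 CPM in fed and 385 to 2078 CPM in fasted libraries, and less with Ensure, at 562 to 1054 and 858 to 1759 CPM.

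**Figure D5:**
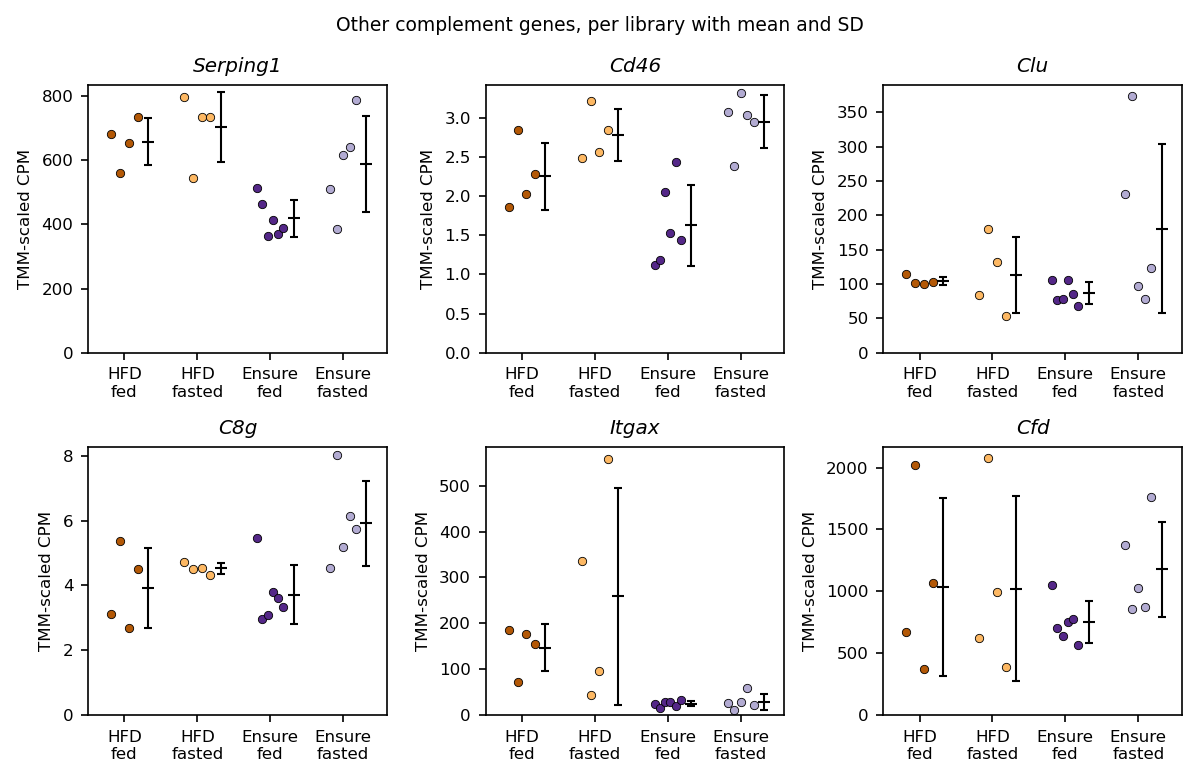
Levels of 6 other complement genes in TMM-scaled CPM (vertical axes from 0) in the 4 groups; points are libraries and bars the mean and SD. Itgax is at 43.8 to 558 CPM in the HFD libraries and at most 58.6 CPM in the Ensure libraries, and the 2 highest points of Clu in Ensure fasted are libraries 5 and 2.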

How the data were processed

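Gene expression was read from 19 RNA sequencing libraries, grouped by the diet and feeding state in the labels. Per the labels' protocols, total RNA from an RNeasy extraction was enriched for poly-A RNA and made into TruSeq RNA libraries for a HiSeq2000. Per the submitters' processing notes, the tools were bcl2fastq 1.8.4, TopHat2 2.1 and HTSeq 0.6.1, and the build was mm9. Their settings, the annotation and any use of strand were not given in the sources used here, so overlapping and antisense genes can share reads. The authors deposited raw counts, as whole numbers for each gene symbol with no normalization. HTSeq's summary lines stayed out of library sizes. Reads outside genes were 13.0 to 17.3% of all reads, ambiguous ones 0.695 to 0.893% and multiply mapped ones 20.7 to 27.7%. The median depth was 20.23 M counts, and a floor of 3 counts, which covers counting error only, came to 0.124 to 0.209 CPM.

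From these counts, all 19 libraries were fitted as 4 groups with edgeR's quasi-likelihood F test (edgeR 4.0.16, R 4.3.3). TMM scaling was used, and filterByExpr with a minimum count of 10 chose the genes tested. Calls were made at a Benjamini-Hochberg adjusted p under 0.05 over the 16015 genes tested. A standard error is the log2 fold change over the square root of F, and 95% intervals use the t quantile at edgeR's degrees of freedom. The 5 contrasts were the fasting response in each diet, the difference between both responses, and Ensure against HFD in each feeding state. The fit was also run on simulated data with known changes, and the outcome of that run is not reported here. Levels are TMM-scaled CPM, and likeness and correlations used log2(CPM + 0.5). Within groups, 37 pairs of libraries had chi-squares of 5.83 to 233 per gene, so none was counted as a repeat.

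Alternative fits used size factors from DESeq2, unscaled library sizes, no filter, a minimum count of 50, DESeq2 1.42.0, limma 3.58.1 voom with sample quality weights, a lane term, or only the compared groups. Others left out each library in turn or the libraries rich in tract markers or Cdh16. The members, lists and rules were chosen with earlier results of these data known. All 9 members are named, as are Cfd, every other listed complement gene called in a contrast, and the 5 genes most like each of C1qa, C3, C4b, Cfb and Cfp, except 1 for Cfb that is not reported here. Genes named beyond this rule were chosen after their values were seen. Ly6g and Trac, on the marker lists, were not analysed here. Gene order on chromosomes came from a later build than the counts, so the coordinates given are only those of the RefSeq promoter windows.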

Additional observations from a re-analysis of the deposited data

Results flagged for a closer look

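C8g, a chain of complement C8, was at 5.46 CPM in Ensure fed 1, far from the other 5 Ensure fed libraries at 2.98 to 3.80 CPM. Of 72 groups of values examined for such a far library, this was the only one past Dixon's critical value, and chance gives about 1 in 20. Hepatocyte markers summed to 344 CPM in the same library and to at most 52.6 CPM in the others, and their part in the C8g value was not tested.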

How the results depend on the processing

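No paired analysis was possible because the groups share no replicate numbers. The count of called complement genes (0 with HFD fasting, 0 with Ensure fasting, 0 in the difference, 1 and 1 between diets) was the same when each library was left out, under both other scalings and both other filters, with DESeq2 and when libraries rich in tract markers or Cdh16 were left out. Other scalings moved the median of all genes by at most 0.05 on the log2 scale. Below, the share in brackets is that of all genes called in the same fit. By limma voom the count became 2 of 9 with Ensure fasting (35.2%), 2 between fed (34.0%) and 5 between fasted diets (21.3%). With lane as a term it was 0 between fed (0.0125%) and 0 between fasted diets (0%), and in a fit of the fasted groups alone 0 (0.00648%). The contrast of responses uses all 4 groups, so it has no such fit. Of single values, C3 with HFD fasting ranged from -0.38 (without HFD fasted 23) to 0.023 (without HFD fed 25), and Masp1 with HFD fasting was 0.22 by limma voom, the values of 0.023 and 0.22 being opposite in sign to the reported ones. Of 43 uncalled fold changes over the 9 genes and 5 contrasts, 28 changed sign in at least 1 alternative, each at 0.30 or less in size, 7 were called in at least 1, and 0 were called with the opposite sign.

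The 38 other complement genes, 31 of them tested, gave 0 (1.22%), 4 (20.3%), 0 (0%), 2 (4.26%) and 1 (2.82%) calls in the 5 contrasts. With HFD fasting 1 was called by limma voom (18.6%) and 1 once libraries rich in tract markers or Cdh16 were left out (5.96%). With Ensure fasting 9 were called by limma voom (35.2%), 0 with lane (4.75%), 2 without the libraries rich in tract markers (7.36%), 1 without these and those rich in Cdh16 (5.06%), and 1 to 4 with single libraries left out (14.3 to 23.8%; 1 without Ensure fed 10, 12, 16 or 18, 2 without Ensure fed 9 or Ensure fasted 5). In the difference limma voom called 2 (7.31%). Between fed diets 4 were called without a filter (2.71%), 4 by DESeq2 (9.68%), 11 by limma voom (34.0%), 0 with lane (0.0125%), 1 without the libraries rich in tract markers or Cdh16 (1.40%), 9 in a fit of those groups alone (19.8%) and 1 to 3 with single libraries left out (1.46 to 5.34%). Between fasted diets 4 were called by DESeq2 (8.09%), 4 by limma voom (21.3%), 0 with lane (0%), 2 without the libraries rich in tract markers (3.97%), 5 without these and those rich in Cdh16 (10.5%), 0 in a fit of those groups alone (0.00648%) and 1 to 2 with single libraries left out (1.27 to 4.75%). The cause of these changes was not tested. Depth limits Masp1 most, at 9 reads in HFD fasted 28.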

Other observations

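Several complement genes known as products of the liver were near the floor in most libraries and higher in a few. In Ensure fed 1, Mbl2 was at 1.64 CPM, Mbl1 at 1.17 and C8a and C8b at 1.99 each, for each gene the highest level of all libraries. Hc, which encodes C5, was at 2.93 CPM there. Hepatocyte markers summed to 344 CPM in this same library, and their part in these values was not tested. In the HFD libraries Mbl1 reached at most 0.304 CPM and Mbl2 at most 0.128 CPM. The other Ensure libraries were also low, at most at 0.199 CPM for Mbl1 and 0.140 CPM for Mbl2. Hc was highest in HFD fasted 28, at 8.54 CPM, the library with the highest lipid-associated macrophage sum (19903 CPM). C4bp, an inhibitor of the classical enzyme, was at 137 CPM in Ensure fasted 5, the library with 11663 CPM of genital tract and sperm markers, and at no more than 8.41 CPM in Ensure fed libraries.

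Colec10, a collectin of the lectin pathway, had 0 reads in 7 of the 8 HFD libraries and 2 reads in HFD fasted 26, against 2 to 13 reads in each of the 11 Ensure libraries. Fcnb, a ficolin of the same pathway, had 1 read in 1 of the 8 HFD libraries and 0 to 5 reads in the Ensure libraries. Both genes fell below the filter on low counts and were called between fed diets by edgeR only without that filter. That fit called 2.7% of all genes. Neither gene had a read in an HFD fed library, and diet and lane can barely be told apart here. The levels are at or near the floor of 3 counts, so no fold is given.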
